A study of Mus musculus with 63 samples.

Results

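The complement system was examined in mouse heart through 9 of the 19220 genes in the deposited count table: C1qa, C1qb, C1qc, C1ra, C1s1, Masp1, C4b, C3 and Serping1. They were taken by gene symbol, each symbol matched 1 row, and all 9 passed the filter on low counts. Heart RNA had been sequenced from 8 strains, the founders of the Diversity Outbred mice, which the labels name WSB, PWK, NZO, NOD, Cast, B6, AJ and 129. There were 8 libraries per strain, apart from Cast with 7, giving 63 in all. Every strain, B6 included, was fed a diet rich in sugar and fat (45% fat), so no other diet can be compared here. Age and sex are not given in the labels used here, and nothing in them says outright that replicates are separate mice, so p-values measure the spread between these libraries. A name such as NZO_8 stands for replicate 8 of the NZO strain.

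Complement is a cascade of plasma proteins that marks targets for uptake, recruits leukocytes and can lyse cells. In the classical pathway the C1q molecule, built from the products of C1qa, C1qb and C1qc, binds a target and activates the attached proteases C1r and C1s, which cleave C4. In the lectin pathway proteases of the MASP family are carried by mannose-binding lectins, ficolins and collectins, and both routes lead to cleavage of C3. The liver makes most circulating complement, while C1q comes mainly from macrophages and related cells, and fibroblasts and other tissue cells make C1r, C1s, C3 and C1 inhibitor. In whole heart, fewer cells of a type and less RNA per cell cannot be told apart.

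Expression values are CPM, counts scaled to a common library total with edgeR's TMM factors, which adjust for composition. Total counts per library ran from 21.8 M to 42.9 M, with a median of 30.4 M. Some libraries stood apart from their strain over 8614 well-measured genes. The SD of a library's log2 deviations from its strain mean had a median of 0.149, against 0.735 in WSB_1, 0.351 in Cast_1, 0.302 in Cast_5, 0.298 in Cast_6 and 0.287 in NZO_8. Cardiomyocyte markers summed to 44500 CPM in WSB_1 and to between 68800 and 82500 CPM in the other WSB libraries. Results that rest on NZO_8 or WSB_1 are therefore given with and without them.

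The C1q genes lie side by side on chromosome 4 (GRCm38), with C1qb at chr4:136880129-136886187, C1qc at chr4:136889804-136893065 and C1qa at chr4:136895917-136898803, all on the minus strand. C1ra (chr6:124512405-124523443, plus strand) and C1s1 (chr6:124530345-124542359, minus strand) are neighbours on chromosome 6. C3 (chr17:57203970-57228136) and C4b (chr17:34728380-34743882) are far apart on chromosome 17, C4b within the major histocompatibility complex. Masp1 is at chr16:23451785-23520590 and Serping1 at chr2:84765387-84775444, these 4 genes on the minus strand. RefSeq promoter windows matched 5 of the 9 members (C1qb, C1qc, C1ra, C1s1 and C3).

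Upstream sequences are shown for 1 gene from each step of the cascade: recognition (C1qb), protease (C1s1) and C3. These genes were taken because they varied together between libraries of a strain, as described further on. The windows shown lie outside the GENCODE M21 gene. Each is the 250 bases before the RefSeq start on GRCm38.p6, written 5′ to 3′ on the gene's strand. For C1qb that start lies upstream of the GENCODE M21 gene and matches no transcript start there, so positions for it count from the RefSeq start. They lie at chr4:136886201-136886450, chr6:124542360-124542609 and chr17:57228137-57228386, all minus strand. Capitals mark matches to the motif letters searched.
C1qb: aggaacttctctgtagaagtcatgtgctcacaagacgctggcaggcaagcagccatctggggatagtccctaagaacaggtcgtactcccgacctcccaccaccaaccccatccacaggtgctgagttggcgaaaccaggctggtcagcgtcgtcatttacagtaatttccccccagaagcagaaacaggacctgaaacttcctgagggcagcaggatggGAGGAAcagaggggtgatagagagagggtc
C1s1: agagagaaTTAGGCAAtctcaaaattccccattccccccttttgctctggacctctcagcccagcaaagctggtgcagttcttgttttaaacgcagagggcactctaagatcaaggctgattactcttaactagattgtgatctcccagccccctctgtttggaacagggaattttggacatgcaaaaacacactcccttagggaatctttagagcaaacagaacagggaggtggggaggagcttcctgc
C3: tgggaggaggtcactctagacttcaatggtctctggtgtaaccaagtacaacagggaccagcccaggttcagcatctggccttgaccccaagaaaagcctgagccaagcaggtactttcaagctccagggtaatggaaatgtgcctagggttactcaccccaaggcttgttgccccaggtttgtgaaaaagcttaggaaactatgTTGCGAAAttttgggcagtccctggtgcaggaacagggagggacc

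Both strands were searched for 5 motifs. The PU.1 core, GAGGAA, began 30 bases before the start of C1qb (position -30) and is held by 23.3% of 32851 RefSeq windows of the same length. The C/EBP letters TTGCNNAA were in the windows shown for C3 (position -45) and C1s1 (position -242), and in 9.56% of all windows. C1s1 had a second RefSeq window, not shown, with 38 bases inside the GENCODE M21 gene. It held no C/EBP match, so that match depends on the start used. The C1qc window held the PU.1 core (position -193) and an NF-kB match (position -41), the latter in 3.9% of all windows. None of these members' windows held the GAS letters TTCNNNGAA (7.02% of all windows) or the interferon-stimulated response element, ISRE (2.98%). A match describes these letters in the reference genome only. Variants of the other strains in these windows were not analysed here.

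Divided by exon length, the mean level over strains was highest for C3 at 47.1 CPM per kilobase, followed by Serping1 at 35.6 and C1qa at 22.8. C1qb stood at 15.6, C1s1 at 12.5, C1qc at 10.5, C1ra at 8.19 and C4b at 7.88 CPM per kilobase. Masp1 was lowest at 1.0 CPM per kilobase. Levels differed among strains for 9 of 9 members (edgeR's quasi-likelihood test over all strains, Benjamini-Hochberg adjusted over 16425 genes), and so they did for 89.4% of all genes tested, so this count sets the members little apart from other genes. Of the 252 tests of a member in a pair of strains, 131 passed, against 40.5% of such tests over all genes.

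The members differed widely in how much strain mattered. Masp1 differed in 25 of 28 pairs of strains, Serping1 in 22, C1ra in 19, C4b and C3 in 14 each, C1s1 in 13, C1qc in 10, and C1qa and C1qb in 7 each. The median over all genes was 12 pairs. The distance between the highest and lowest strain means was 4.71 log2 units for Masp1, wider than for 98.1% of the tested genes. It was 2.46 for C4b, 1.76 for C1s1, 1.74 for C3, 1.32 for Serping1, 1.12 for C1ra, 0.79 for C1qc, 0.54 for C1qb and 0.45 for C1qa, against a median of 0.78 over all genes. Strain took 94.9% of the variance of log2 CPM for Masp1 and 81.6% for Serping1, against 23.8% for C1qa and 22.0% for C1qb, with a median of 44.3% over all genes.

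**Figure D1:**
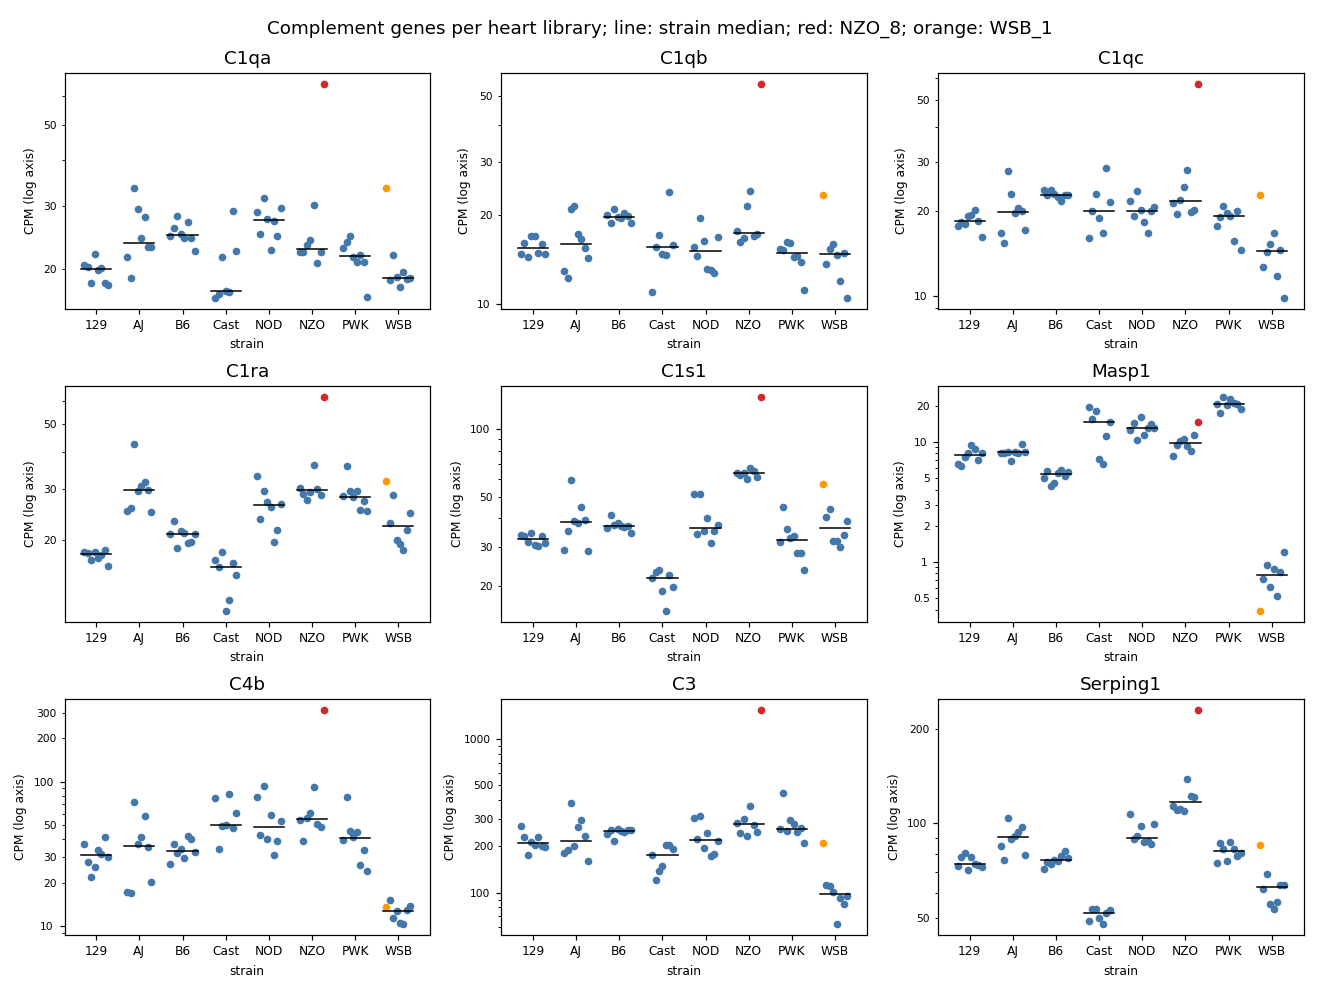
CPM of each of the 9 complement genes (1 panel per gene, log axis) in every library, by strain, with the strain median as a line. NZO_8 (red) is the highest NZO point in all 9 panels, and the WSB points for Masp1 lie between 0.39 and 1.2 CPM, below all others.

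C1qa, C1qb and C1qc encode the chains of C1q, the recognition unit of the classical pathway. C1qa ran from 20.9 CPM (lowest) over a median of 22.9 to 65.0 CPM in NZO, and from 18.1 over 20.0 to 22.1 CPM in 129. The top NZO value is NZO_8 and the next NZO library had 30.2 CPM, so the ranges of the 2 strains overlap only at their edges. C1qa was 28.8 ± 14.9 CPM (SD, n = 8) in NZO with NZO_8 and 23.6 ± 3.05 CPM (SD, n = 7) without it. Its difference from the mean of the other 7 strains was 0.34 ± 0.11 log2 units (SE, adjusted p = 0.00807, edgeR) with NZO_8 and 0.05 ± 0.08 (adjusted p = 0.638) without it. In 129 C1qa was lower by a log2 difference of -0.28 ± 0.11 (SE, adjusted p = 0.0481, edgeR), or -0.24 without NZO_8 (adjusted p = 0.0149). No neighbours in the order of C1qa levels (NOD, NZO, B6, AJ, PWK, WSB, Cast, 129) differed past the threshold.

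C1qb had its lowest, median and highest NZO values at 16.2, 17.4 and 55.0 CPM. In B6 they were 18.7, 19.7 and 20.9 CPM, the narrowest relative spread of any strain for this gene (coefficient of variation 3.72%). Without NZO_8 the B6 and NZO ranges overlap, the next NZO library standing at 24.1 CPM. The NZO difference for C1qb was 0.53 ± 0.11 log2 units (SE, adjusted p = 0.000139, edgeR) with NZO_8 and 0.22 ± 0.09 (adjusted p = 0.0505) without it. B6 was 0.27 log2 units above the other strains (adjusted p = 0.0781, edgeR), and 0.31 above (adjusted p = 0.00274) once NZO_8 was left out of their mean.

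C1qc was the C1q chain with a lower level in WSB, where the lowest, median and highest values were 9.82, 14.4 and 22.9 CPM. In the other strains the medians lay between 18.5 CPM in 129 and 22.9 CPM in B6. The WSB range overlaps those of all other strains, but the highest WSB library is WSB_1, and without it (next 16.8 CPM) WSB lies wholly below B6 and NZO. The share of all genes that do so is not given here. C1qc was lower in WSB by a log2 difference of -0.50 ± 0.11 (SE, adjusted p = 0.000248, edgeR), or -0.62 without WSB_1. C1qa in WSB gave -0.18 (adjusted p = 0.202) with WSB_1 and -0.30 (adjusted p = 0.0253) without it. Of 10 macrophage markers, 6 were lower in WSB (19.9% of all genes) and 0 higher (25.1%). Among the 6 were Folr2 at -2.75 and Cx3cr1, the fractalkine receptor, at -1.04 log2 units, while Csf1r was at -0.19 (adjusted p = 0.0631, edgeR). The summed level of the 10 markers was 107 to 134 CPM in WSB, the lowest being WSB_1, with the other WSB libraries at 112 to 134 CPM. It was 113 to 154 CPM in 129, 109 to 153 CPM in AJ and 107 to 156 CPM in PWK, so the low ends were alike. The part of these markers in the C1q values was not tested.

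C1ra and C1s1 encode the proteases C1r and C1s. C1ra was lowest in Cast, with a lowest, median and highest value of 11.4, 16.1 and 18.1 CPM, and next in 129 with 16.2, 17.8 and 18.4 CPM. These ranges overlap each other and neighbours in the order of C1ra levels (NZO, AJ, PWK, NOD, WSB, B6, 129, Cast) did not differ past the threshold. Against the other 7 strains C1ra was lower in Cast by a log2 difference of -0.72 ± 0.10 (SE, adjusted p = 1.36e-08, edgeR) and in 129 by -0.49 ± 0.10 (adjusted p = 3.67e-05). It was higher in NZO by 0.60 ± 0.09 (0.42 without NZO_8), in AJ by 0.39 ± 0.09 and in PWK by 0.31 ± 0.09 log2 units. The transcript of C1ra is 97.9% identical to that of C1rb over 2432 bases, so how the authors' counting split reads between them is uncertain. C1rb was not used here.

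C1s1 set NZO at the top and Cast at the bottom. The NZO values were 59.8 (lowest), 63.9 (median) and 139 CPM (NZO_8), the next library being at 67.2 CPM. The Cast values were 15.5, 21.7 and 23.6 CPM. All NZO libraries were above all libraries of the other strains, of which AJ_3 came nearest at 59.3 CPM, and 0.353% of all genes showed such a separation for NZO. C1s1 was higher in NZO by 1.11 ± 0.09 log2 units (SE, adjusted p = 2.06e-15, edgeR), and by 0.91 ± 0.08 (adjusted p = 4.72e-14) without NZO_8. It was lower in Cast by a log2 difference of -0.95 ± 0.12 (adjusted p = 6.53e-10, edgeR). From NOD down to PWK, 6 strains with means of 32.2 to 39.4 CPM held the middle, and no neighbours among them differed past the threshold.

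The copy of C1s1, C1s2, is 96.0% identical over 2644 bases. It had at most 0.245 CPM in any library and was not tested, and adding its counts to those of C1s1 changed no call of C1s1. An antisense gene, Gm16567, overlaps C1s1. Strand use in counting is not given in the sources used here, so reads of antisense partners cannot be told apart.

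Fibroblast markers moved in NZO and Cast, the strains at the ends of both C1 proteases. In the other strains where C1ra was called, the medians of these markers were -0.01 in 129, 0.04 in AJ and 0.04 in PWK. All 10 fibroblast markers were higher in NZO (22.1% of all genes), or 9 without NZO_8 (20.5%), and all 10 were lower in Cast (29.3%). Medians of these markers were 0.69 in NZO and -0.78 log2 units in Cast, against a median of 0 over all genes in both strains. Their summed level was 2790 to 3370 CPM in NZO and 900 to 1630 CPM in Cast, where Cast_6 was lowest. Without Cast_1, Cast_5 and Cast_6, Dpt in Cast was at 0.01 log2 units (adjusted p = 0.918, edgeR). The other fibroblast markers stayed lower, from -0.33 (Lum) to -0.71 (Dcn), each past the threshold. Over the 8 strain means, the genes whose pattern was most like that of C1s1 were Lpar1 (r = 0.99), Bgn (r = 0.97) and Mfap5 (r = 0.97), a lysophosphatidic acid receptor, the proteoglycan biglycan and a microfibril protein. Mfap5 is also on the fibroblast list. The part of the fibroblast markers in the C1s1 and C1ra values was not tested.

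Masp1 encodes the lectin pathway proteases MASP-1 and MASP-3 and the inhibitory splice product MAp44, which counts per gene cannot tell apart. It was lowest in WSB at 0.39 (lowest), 0.77 (median) and 1.20 CPM (highest), which came from 14 to 38 counts per library. In PWK the values were 17.5, 20.6 and 23.6 CPM. No WSB library reached the lowest library of another strain (B6_3 at 4.29 CPM), and 0.384% of all genes had every WSB library below all others. Masp1 was 0.759 ± 0.255 CPM (SD, n = 8) in WSB, and the log2 difference from the other strains was -3.75 ± 0.16 (SE, adjusted p = 5.13e-30, edgeR), a 13.4-fold lower level. Without WSB_1, the library with the lowest Masp1 level, it was -3.64.

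In PWK Masp1 was 20.6 ± 1.93 CPM (SD, n = 8), higher than in the other strains by 1.69 ± 0.09 log2 units (SE, adjusted p = 1.1e-24, edgeR). PWK overlapped only with Cast, where the values were 6.54 (lowest), 14.5 (median) and 19.4 CPM (highest). The pair of PWK and WSB, the ends of the order, differed 27.0-fold (adjusted p = 4.06e-33, edgeR). In between came NOD at 13.1 ± 1.75, Cast at 13.2 ± 5.04 (n = 7), NZO at 10.2 ± 2.16, AJ at 8.17 ± 0.739, 129 at 7.68 ± 1.09 and B6 at 5.21 ± 0.559 CPM (SD, n = 8 where not given). Masp1 was also higher in NOD (0.94 log2 units), Cast (0.95) and NZO (0.52), and lower in B6 (-0.58). Of the 28 pairs, 3 did not pass: NOD and Cast (adjusted p = 0.979), NZO and AJ (adjusted p = 0.0824) and AJ and 129 (adjusted p = 0.685).

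Within Cast, Masp1 was split. Cast_5 and Cast_6 had 7.18 and 6.54 CPM, and the other 5 libraries had 11.1 to 19.4 CPM. The same 2 libraries had the highest sums of neutrophil markers in Cast (25.2 and 28.7 CPM, the others at most 8.09) and of 12 acute phase genes (365 and 319 CPM, the others at most 210). They also had the lowest fibroblast sums, 1080 and 900 CPM. The part of these markers in the Cast values was not tested. Without Cast_1, Cast_5 and Cast_6 the Cast difference for Masp1 was 1.12 log2 units.

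Of the genes within 500 kb of Masp1, 7 were tested and none was as low in WSB. Adipoq, which encodes the fat cell hormone adiponectin, had a log2 difference of -1.74 ± 0.60 (SE, adjusted p = 0.0153, edgeR), at 1.24 CPM in WSB and 4.76 CPM in the others. Without WSB_1 the Adipoq difference was -2.45 (adjusted p = 0.00288, edgeR). Rtp4, Rfc4 and St6gal1 gave -0.42, -0.27 and -0.18 log2 units and also passed, while Eif4a2, BC106179 and Bcl6 did not. In all, 4 of the 7 were lower and 0 higher, against 19.9% and 25.1% of all genes. Rtp4, an interferon-induced receptor transporter, is annotated in GENCODE M21 as overlapping Masp1 on the opposite strand. By the gene positions deposited with the counts, which were used for these distances, Rtp4 lies 89.3 kb from Masp1 without overlap. Its own level was 2.68 CPM in WSB. Of 6 adipocyte markers, 4 were lower in WSB (19.9% of all genes) and 3 higher in PWK (27%), with medians of -1.87 and 0.96 log2 units. In NOD 0 were higher (19% of all genes), with a median of 0.72 log2 units. In Cast 0 were higher (30.6%) and 1 was lower (29.3%), with a median of 0. In NZO 1 was higher (22.1%), with a median of -0.71 log2 units. In B6, where Masp1 was lower, 0 were lower (14.7%) and 0 higher, with a median of 0.19 log2 units. Their sum in WSB_1, a library apart from its strain, was 1130 CPM, against 271 to 396 CPM in the other WSB libraries. Masp1 in WSB_1 was the lowest of all at 0.39 CPM. The part of the adipocyte markers in the Masp1 values was not tested.

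**Figure D2:**
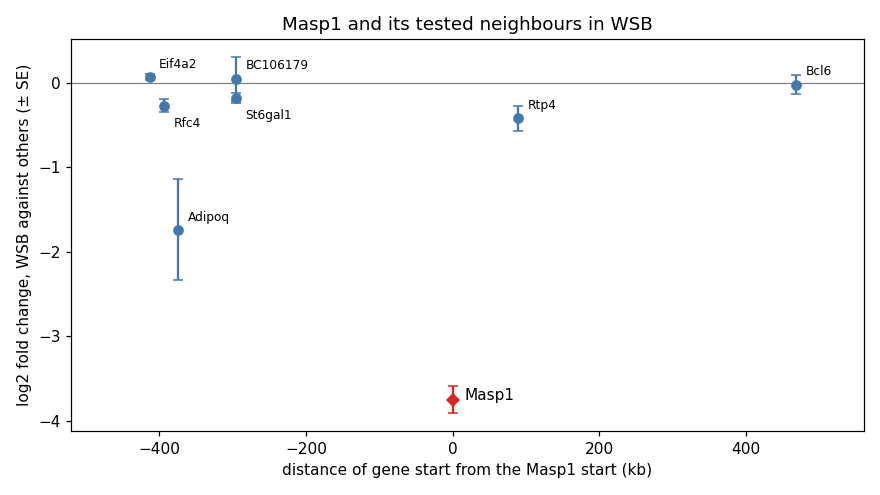
Log2 fold change in WSB against the other 7 strains (y axis, bars are SE) for Masp1 (red) and the 7 tested genes within 500 kb (blue), by distance of the gene start from the Masp1 start in kb (x axis). Masp1 lies at -3.75, and the neighbours lie between -1.74 (Adipoq) and 0.07 (Eif4a2).

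Other genes of the lectin and C1 group had strain orders of their own. Of 11 listed, 5 were tested and 5 of 5 differed among strains. In WSB, 3 of these were lower, Fcna (ficolin A, -0.95), Colec11 (-0.71) and Colec12 (-0.34), and 2 were higher, Masp2 (1.59) and C1rl (0.35), all in log2 units. Masp2, the other main lectin pathway protease, had its lowest mean in NZO, at 0.0176 CPM, against 0.168 CPM in B6 and 1.04 CPM in WSB. The WSB mean of Masp2 includes 2.65 CPM in WSB_1, against 0.57 to 1.1 CPM in the other WSB libraries. Without WSB_1 the Masp2 difference was 1.22 log2 units (adjusted p = 0.000166, edgeR), and that of C1rl was 0.26 (adjusted p = 0.165).

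C4b encodes complement C4, which both pathways cleave. In WSB it was 10.4 (lowest), 12.9 (median) and 15.3 CPM (highest), and in NZO 38.9, 55.1 and 313 CPM. All WSB libraries were below all others, the nearest being AJ_2 at 17.0 CPM, and 0.384% of all genes showed such a separation. C4b was 12.6 ± 1.69 CPM (SD, n = 8) in WSB, lower by a log2 difference of -1.88 ± 0.27 (SE, adjusted p = 3.69e-08, edgeR), a 3.68-fold lower level. Libraries of AJ, PWK and NOD were spread widely, with coefficients of variation of 53.2%, 40.3% and 38.9%, against 13.4% in WSB and 15.0% in B6. The NZO difference was 1.34 ± 0.20 log2 units (adjusted p = 1.37e-07, edgeR) with NZO_8 and 0.71 ± 0.17 (adjusted p = 0.000793) without it.

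C4b was also higher in Cast, by 0.62 ± 0.22 log2 units (SE, adjusted p = 0.0151, edgeR), and in NOD, by 0.54 ± 0.21 (adjusted p = 0.0462). Without Cast_1, Cast_5 and Cast_6 the Cast difference was 0.36 (adjusted p = 0.336). Adding the counts of the copy C4a, which is 96.0% identical over 5378 bases, left NOD at 0.52 (adjusted p = 0.053). C4a itself was at 0.199 CPM in AJ and 2.44 CPM in PWK, and in WSB it was higher than in the other strains, by 1.17 log2 units (0.78 without WSB_1), the opposite direction to C4b. Of 52 tested genes within 500 kb of C4b, 14 were higher and 14 lower in WSB, against 25.1% and 19.9% of all genes.

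C3, the protein on which all activation routes meet, had the highest level per length of the members. In WSB it was 62.4 (lowest), 98.3 (median) and 211 CPM (highest, WSB_1), with the next library at 112 CPM. In B6 the values were 217, 253 and 259 CPM. Without WSB_1 every WSB library was below all libraries of the other strains, whose lowest was Cast_2 at 121 CPM. The share of all genes that separate this way without WSB_1 is not given here. C3 was 109 ± 44.4 CPM (SD, n = 8) in WSB, lower by a log2 difference of -1.20 ± 0.21 (SE, adjusted p = 2.54e-06, edgeR), or -1.41 without WSB_1. In Cast it was lower by -0.47 ± 0.21 (adjusted p = 0.0433, edgeR), and -0.52 (adjusted p = 0.121) without Cast_1, Cast_5 and Cast_6.

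NZO_8 had 1550 CPM of C3, and the other 7 NZO libraries had 235 to 366 CPM. The NZO difference was 1.10 ± 0.17 log2 units (SE, adjusted p = 3.46e-07, edgeR) with this library and 0.44 ± 0.12 (adjusted p = 0.00296) without it. With NZO_8, C3 in NZO passed against each of the other 7 strains. Without it NZO passed against Cast (adjusted p = 0.000303) and WSB (7.64e-10), and not against PWK (0.954), B6 (0.487), AJ (0.346), NOD (0.256) or 129 (0.0772). PWK itself was 0.37 log2 units above the other strains (adjusted p = 0.0818, edgeR), and 0.46 above (adjusted p = 0.000657) without NZO_8.

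Genes that act beside C4b and C3 were fewer and more variable. Of 6 listed genes of the convertases and the alternative pathway, 5 were tested and 3 differed among strains: C4a, C2 and Cfb. C2, which joins C4 in the C3 convertase, was lower in Cast by a log2 difference of -2.59 (0.736 CPM), while C4b was higher there. Cfb, its counterpart in the alternative pathway, was lower in 129 (-1.21) and higher in NZO (0.80) and NOD (0.80), and its NZO_8 value of 27.1 CPM stood above the 2.54 to 6.91 CPM of the other NZO libraries. Without NZO_8 the NZO difference of Cfb was 0.05 log2 units (adjusted p = 0.888, edgeR). Of 6 terminal pathway genes, 3 were tested and all 3 differed: C7 was higher in WSB (2.20 log2 units, 31.3 CPM) and lower in Cast (-2.17), C8g was lower in Cast (-1.70), and C6 was higher in NZO (1.88), where NZO_8 had 3.27 CPM and the others at most 0.662. Without NZO_8 the C6 difference was 0.73 (adjusted p = 0.187, edgeR). C7 was split within WSB, at 37.6 to 70.6 CPM in WSB_5 to WSB_8 and 4.97 to 9.19 CPM in the other 4 libraries. In NOD it was 25.6 to 36.8 CPM in NOD_5 to NOD_8 and 5.74 to 8.03 CPM in NOD_1 to NOD_4. The split by replicate number also held in 129 (129_1 to 129_4 1.73 to 2.81 CPM, 129_6 to 129_9 10.5 to 19.8). B6_1 to B6_4 had 2.03 to 2.75 CPM and B6_5 to B6_8 8.28 to 13.4. AJ_1 to AJ_4 had 2.8 to 3.7 CPM and AJ_5 to AJ_8 5.64 to 7.74. Cast and NZO went the same way, and PWK did not (PWK_4 20.5 CPM, PWK_7 4.08). What follows the replicate number was not tested.

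Serping1 encodes C1 inhibitor, which blocks C1r, C1s and the MASP proteases. Its values in NZO were 109 (lowest), 117 (median) and 229 CPM (NZO_8), and in Cast 47.8, 51.8 and 53.5 CPM. All NZO libraries were above, and all Cast libraries below, every library of the other strains. The Cast edge is thin, since WSB_6 also rounds to 53.5 CPM. Of all genes, 0.353% had every NZO library above the others and 1.52% had every Cast library below them. Serping1 was higher in NZO by 0.82 ± 0.06 log2 units (SE, adjusted p = 8.09e-18, edgeR), and by 0.66 ± 0.05 (adjusted p = 1e-18) without NZO_8. It was lower in Cast by a log2 difference of -0.73 ± 0.08 (adjusted p = 5.3e-13, edgeR) and in WSB by -0.38 ± 0.07 (adjusted p = 6.12e-06).

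The strain ends of Serping1 match those of C1s1, whose product it inhibits: NZO was highest and Cast lowest for both. In WSB they parted, with Serping1 lower and C1s1 at 0.07 log2 units (adjusted p = 0.622, edgeR). Serping1 varied little within B6, 129 and Cast, with coefficients of variation of 3.84%, 4.37% and 4.51%, against 15.0%, 19.9% and 29.9% for C4b in the same strains. It varied more in NZO (30.7%, NZO_8 included), WSB (16.1%, above the 13.4% of C4b there) and AJ (10.2%). Of 15 interferon response genes, 12 were higher in NZO (22.1% of all genes), 13 lower in Cast (29.3%) and 9 lower in WSB (19.9%). In B6, 14 of the 15 were higher, and 14 also without NZO_8, against 17.8% of all genes then. Their B6 median was 0.90 log2 units, where Serping1 was at -0.07 and not called. Their part in the Serping1 values, and that of the fibroblast markers given above, was not tested.

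Other inhibitors and the receptors followed different strains. Of 9 soluble inhibitors listed, 5 were tested and all 5 differed. Cpn2, a subunit of the enzyme that inactivates anaphylatoxins, was lowest in Cast at 0.0535 CPM and highest in NZO at 5.33 CPM. Cfi, which cleaves C3b and C4b, was higher in Cast (2.18 log2 units) and lower in B6 (-2.49). Clu (clusterin) was lower in PWK (-1.51). All 6 tested membrane inhibitors differed, and Cd59a, which blocks the terminal complex, was at 8.05 CPM in PWK (-2.27 log2 units) and 62.9 CPM in WSB (1.12). All 10 receptor genes differed, with Vsig4, a macrophage receptor for C3 fragments, lower in Cast (-2.02) and higher in NZO (0.94), and Itgax higher in AJ (2.30).

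Counted by strain, NZO and WSB stood at the ends. In NZO 9 of 9 members were higher, against 22.1% of all genes, and 7 of 9 without NZO_8, against 20.5%. C1qa and C1qb were the members lost. In WSB 5 of 9 were lower, against 19.9% of all genes, and 0 were higher, against 25.1%. Without WSB_1, C1qa joined them, making 6, against 20.4%. In Cast 4 were lower (C1ra, C1s1, C3 and Serping1; 29.3% of all genes) and 2 higher (Masp1 and C4b; 30.6%), and without Cast_1, Cast_5 and Cast_6 these were 3 (23.2%) and 1 (22.4%).

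The remaining strains had fewer calls. In 129, C1qa and C1ra were lower (14.4% of all genes). AJ had C1ra and Serping1 higher (20.6%), PWK had Masp1 and C1ra higher (27%), and NOD had Masp1, C4b and Serping1 higher (19%). In B6 Masp1 alone was lower (14.7%). Without NZO_8, C1qb and C1qc were higher in B6 (17.8% of all genes), and C1ra joined Masp1 as lower (14.8%). Also without NZO_8, C1qa was higher in NOD (0.28, adjusted p = 0.00269, edgeR; 19.4% of all genes) and lower in Cast (-0.20, adjusted p = 0.0337; 29.4%), and C3 was higher in PWK (27.1%). These comparisons share samples, because each strain is part of the mean for the others.

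**Figure D3:**
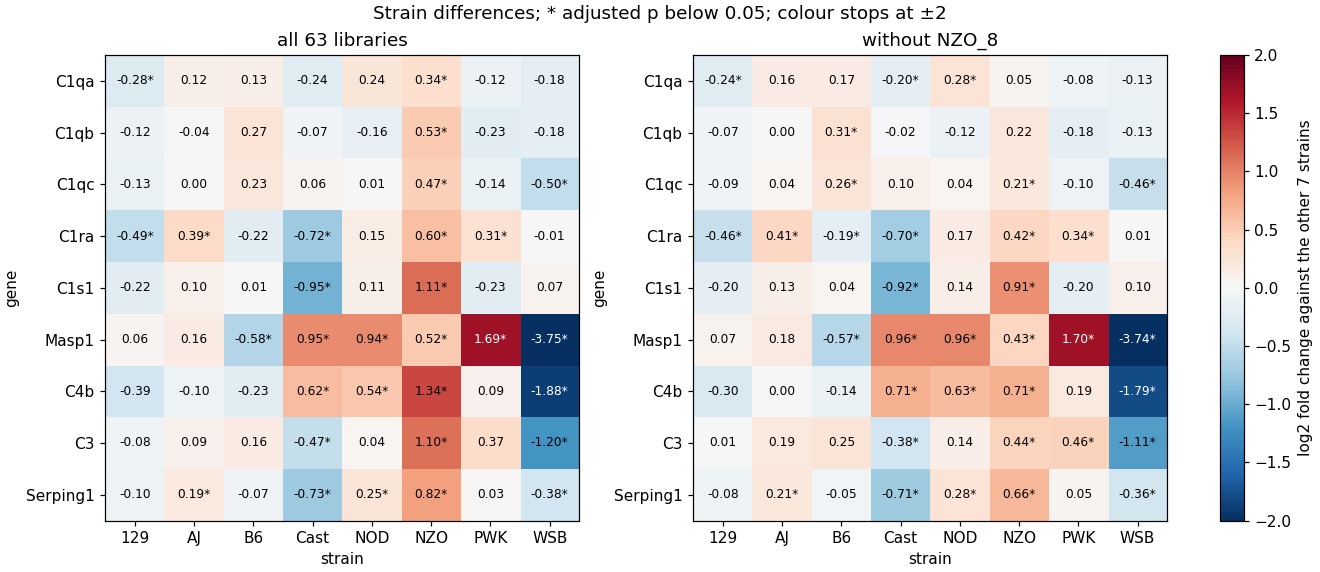
Log2 fold change of each member (rows) in each strain (columns) against the mean of the other 7 strains, with all 63 libraries (left) and without NZO_8 (right); a star marks an adjusted p under the 0.05 threshold. Leaving out NZO_8 lowers the NZO values of C4b from 1.34 to 0.71 and of C3 from 1.10 to 0.44, and Masp1 in WSB stays near -3.75.

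NZO_8 was the highest NZO library for all 9 members. It exceeded the mean of the other 7 libraries 5.57-fold for C3, 5.47-fold for C4b, 2.57-fold to 2.96-fold for the C1q chains, 2.19-fold for C1s1, 2.06-fold for C1ra, 1.94-fold for Serping1 and 1.54-fold for Masp1. Of 8614 well-measured genes, 1.51% lay more than 2-fold from the other NZO libraries.

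Other genes stood high in NZO_8 too. Neutrophil markers summed to 174 CPM, against 3.05 to 8 CPM, with S100a8 132-fold above the mean of the others. Of 12 acute phase genes 11 had their highest NZO value there, and their sum was 389 CPM, against 106 to 135 CPM. Among them Serpina3n, a protease inhibitor of the acute phase, stood at 124 CPM against 2.54 to 12.6 CPM. Macrophage markers summed to 335 CPM against 131 to 161 CPM, with 9 of 10 highest in this library. Fibroblast markers (3310 CPM, the others 2790 to 3370) and interferon response genes (194 CPM, the others 135 to 357) were within the range of the others. Hepatocyte markers (3 of 7 tested) summed to 14.7 CPM, against 5.08 to 30.1 CPM, with albumin (Alb) at 0 CPM. Cardiomyocyte markers summed to 57400 CPM, below the 67700 to 74600 CPM of the others, with 7 of 10 lowest there. Adipocyte markers summed to 561 CPM, above 273 to 428 CPM, but only 1 of the 6 was highest in NZO_8 and 5 were lowest there. The part of these genes in the members' values was not tested.

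**Figure D4:**
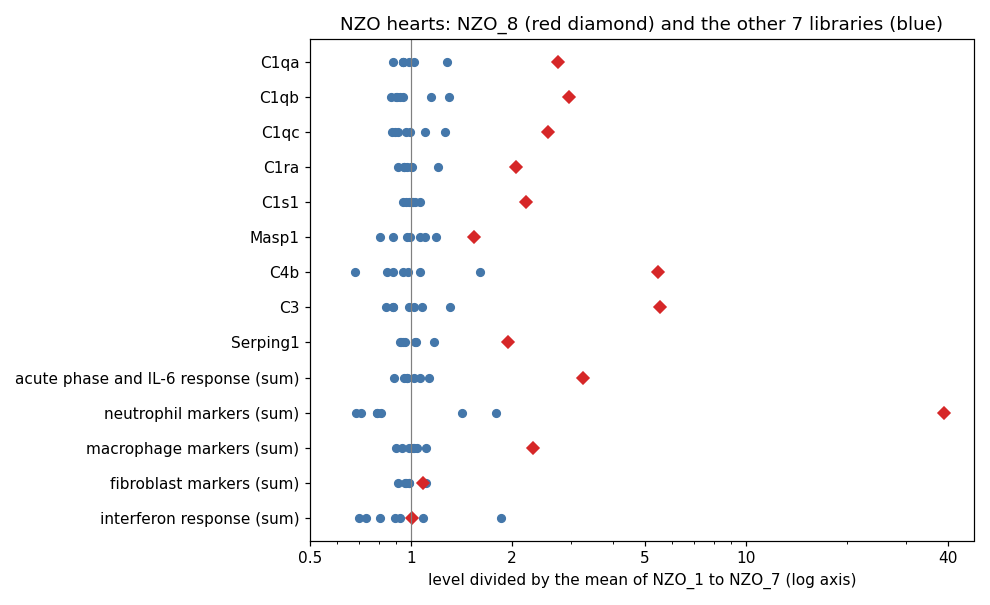
Level in each NZO library divided by the mean of NZO_1 to NZO_7 (log axis), for the 9 members and for the summed CPM of 5 gene lists. NZO_8 (red diamonds) lies 5.57-fold above the others for C3 and 1.54-fold above for Masp1, and within their range for fibroblast markers and interferon response genes.

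WSB_1 differed from the other WSB libraries in another way. It was the highest WSB library for C1qa (33.6 CPM, the others 17.9 to 21.9), C3, C1s1, C1ra, Serping1 and both other C1q chains, but within the range for C4b (13.7 CPM, the others 10.4 to 15.3) and lowest for Masp1. In WSB_1 23.3% of 8614 genes lay more than 2-fold from the other libraries. Its macrophage markers summed to 107 CPM, against 112 to 134 CPM in the other WSB libraries, but were mixed: 3 of 10 were highest and 4 lowest there. All 8 endothelial and all 7 mesothelial markers and 14 of 15 interferon response genes were highest in WSB_1. The part of these genes in the members' WSB_1 values was not tested.

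Between libraries of the same strain, 8 of the members varied together, while the values for Masp1 lay around 0. Taking each library's log2 deviation from its strain mean (n = 63), Pearson's r over the 28 pairs of the other 8 members ran from 0.61 to 0.94, with a median of 0.74. The strongest were C1qb with C1qc (r = 0.94) and C1ra with C1s1 (r = 0.92), both pairs of neighbours on a chromosome. Without NZO_8 (n = 62) the range was 0.40 to 0.90 with a median of 0.60, and without WSB_1 as well it was 0.35 to 0.88 with a median of 0.51. Masp1 with the other members ran from -0.07 to 0.28, from -0.36 to 0.17 without NZO_8, and from -0.22 to 0.34 (median 0.01) without WSB_1 as well. All deviations within a library share its depth, scaling and cell makeup, so these values are a description. The picture differed over the 8 strain means, where Masp1 had r = 0.85 with C4b and 0.76 with C3. With all other members it ran there from -0.12 to 0.85 (median 0.27), and pairs of the other 8 members ran from 0.13 to 0.89 (median 0.58).

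**Figure D5:**
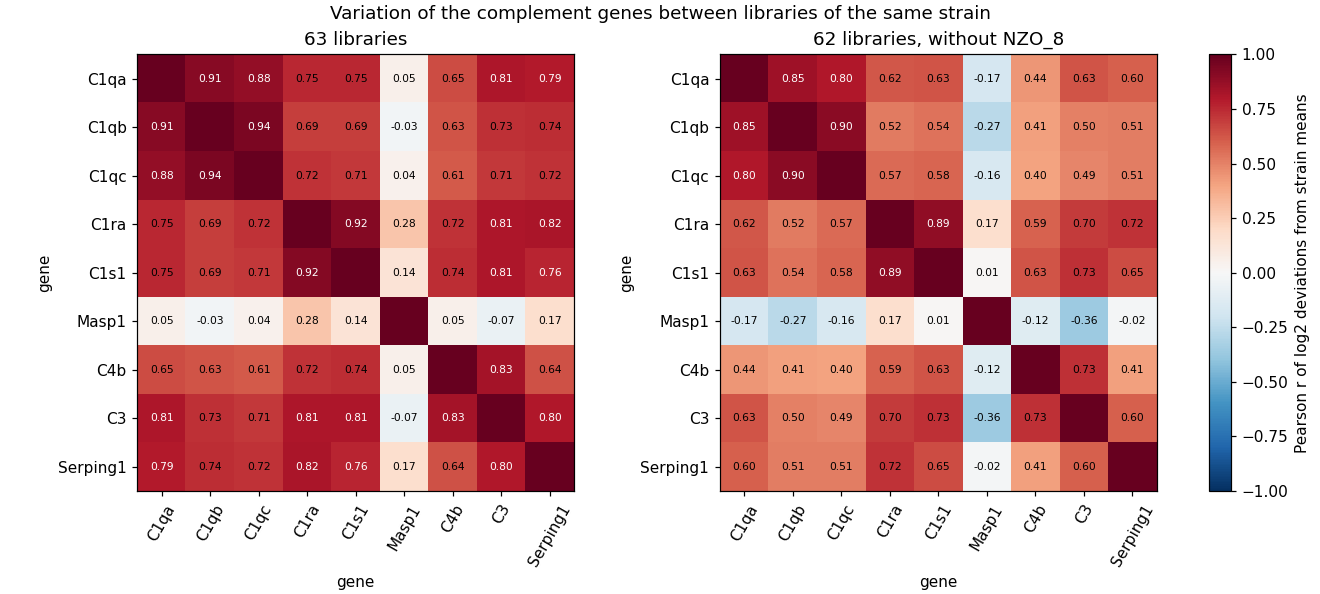
Pearson's r of the log2 deviations from strain means for each pair of members, over 63 libraries (left) and without NZO_8 (right). The C1q chains (0.88 to 0.94) and C1ra with C1s1 (0.92) are the strongest pairs, and the Masp1 row lies between -0.07 and 0.28.

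Unc93b1, which carries Toll-like receptors to endosomes, was the gene most like 5 of the members in these deviations over 63 libraries: C1qa (r = 0.87), C1qb (0.82), C1qc (0.79), C1ra (0.79) and C1s1 (0.79). Next for C1qb came Fcgr3 (r = 0.79), an antibody receptor, and Ctss (r = 0.75), a lysosomal protease, and next for C1ra (r = 0.78) and C1s1 (r = 0.79) came Lyz2. C4b was most like Lyz2 (r = 0.83), the lysozyme of myeloid cells, Cybb (r = 0.77) and Enpp2 (r = 0.76). C3 was most like Tmem176b (r = 0.83), and Serping1 most like Apoe (r = 0.87), the apolipoprotein. Masp1 was most like Iba57 (r = 0.68), Fntb (r = 0.67) and Mgea5 (r = 0.66). The order depends on NZO_8. Without it (n = 62) the gene most like C3 was Sulf1 (r = 0.76), most like Serping1 Crip1 (0.75), most like C4b Enpp2 (0.77), and most like C1ra and C1s1 Trf (0.72 for both). C1qb was then most like Unc93b1 (r = 0.74), H2-D1 (0.73) and H2-K1 (0.69), and Masp1 most like Mgea5, Cpq and Iba57 (0.69 for each).

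Smaller shifts within strains followed the same set of genes. AJ_3 had the highest AJ value for C1qa (33.5 CPM), C1qc (27.8), C1ra (42.6), C1s1 (59.3), C4b (72.2), C3 (381) and Serping1 (104), and its Masp1 value of 8.19 CPM lay inside the AJ range of 6.89 to 9.63 CPM. Interferon response genes summed to 358 CPM in AJ_3, the highest of the AJ libraries. In PWK_2 C3 (446 CPM), C4b (78.6) and C1ra (35.8) were highest of their strain, and Masp1 was lowest at 17.5 CPM. Interferon response genes were at 146 CPM there, inside the PWK range of 98.7 to 161 CPM. B cell markers summed to 96.1 CPM in PWK_2 (next 33.2) and mesothelial markers to 79 CPM (next 58.6). In AJ_3 B cell markers summed to 159 CPM, below 200 CPM in AJ_6, and mesothelial markers to 87.8 CPM (next 84.4). The part of these markers in the members' values was not tested.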

How the data were processed

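Per the submitters' processing notes the genome build was GRCm38. The authors deposited expected counts for each gene without normalisation, of which 18.4% are not whole within 1e-06. The log2 values deposited by the authors are variance-stabilised, and the notes name DESeq2. Aligner, counter and strand use: not given in the sources used here. B6 is the reference strain, and loss of reads to variants in other strains was not tested. Per the labels, polyA RNA of frozen heart was sequenced.

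Rounded counts entered edgeR 4.0.16 under R 4.3.3 (TMM, filterByExpr with a minimum count of 10, robust quasi-likelihood fit, 1 coefficient per strain, 55 residual degrees of freedom), which kept 16425 genes and left out 2795. Each strain was compared with the unweighted mean of the other 7, and all 28 pairs were tested. Adjusted p-values are Benjamini-Hochberg over all tested genes, with a threshold of 0.05. Alternatives used limma 3.58.1 and DESeq2 1.42.0. No 2 libraries had identical counts.

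The members and lists were chosen with earlier results of these data known. From each list the genes past the test with the widest range of strain means, up to 3, were named. Likeness was ranked by Pearson's r among genes whose mean log2 CPM reached 3. Further genes were named after their values were seen. The procedure was tested on simulated data. Exon lengths and copies are from GENCODE M21.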

Additional observations from a re-analysis of the deposited data

Results flagged for a closer look

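Of 72 groups of 7 or 8 libraries (9 genes in 8 strains), 17 had an end library whose gap to its neighbour exceeded Dixon's 95% critical value. Chance gives about 1 in 20 groups. Libraries of one strain share these departures across genes, so the 17 are not independent.

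NZO_8 was the high library in 8 of the 17: C1qa (65.0 CPM, next 30.2), C1qb (55.0, next 24.1), C1qc (57.1, next 28.1), C1ra (61.9, next 36.2), C1s1 (139, next 67.2), C4b (313, next 92.1), C3 (1550, next 366) and Serping1 (229, next 138). Masp1 was the member without such a gap in NZO_8. WSB_1 was high for C1qa (33.6 CPM, next 21.9), C1qb (23.3, next 15.9) and C3 (211, next 112).

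The other 6 were C1ra in AJ_3 (42.6 CPM, next 31.7), C1ra (35.8, next 29.4), C4b (78.6, next 45.7) and C3 (446, next 298) in PWK_2, and on the low side C1qb in PWK_9 (11.2 CPM, next 13.9) and C3 in B6_3 (217, next 242). What set these libraries apart was not tested.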

How the results depend on the processing

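Of 72 differences (9 members in 8 strains), 30 passed the threshold, and 11 alternatives were run, of which 3 that leave out libraries (WSB_1; NZO_8 with WSB_1; Cast_1, Cast_5 and Cast_6) were chosen after seeing the data. The 11 reversals concern values with no call in either fit: C3 in 129 (0.01 without NZO_8, 0.04 without both, but -0.05, its main direction, without WSB_1), C1ra in WSB (0.01 without NZO_8), C1s1 in WSB (-0.04 without WSB_1, -0.01 without both), C1qb in AJ (0.02 without both), C1qb in Cast (0.10) and C1qc in NOD (-0.02) without the 3 Cast libraries, C1qc in NOD (-0.01) under the block described next, and Masp1 in 129 (-0.09) and AJ (-0.02) by limma on the deposited values. Members higher in B6 went from 0 to 2 without NZO_8, 1 without WSB_1, 4 without both and 1 by limma. Those lower in B6 went from 1 to 2 without NZO_8, without both, or without the 3 Cast libraries. NOD went from 3 higher to 5 without both, Cast from 2 higher to 1 without its 3 libraries, and PWK from 0 lower to 1 by limma. Members lower in 129 went from 2 to 1 with no filter on low counts and by limma. DESeq2 and its size factors changed no call.

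Replicate numbers were not taken to pair libraries in the main fit. The rule set was that every same-numbered pair of libraries from different strains correlate over 0.1 in its deviations. Of these, 98 of 199 did (-0.29 to 0.42, median 0.09), against 436 of 1537 other pairs (median -0.01). Same-numbered libraries were thus more often alike, and failing so strict a rule does not show the replicate number to be without a part. With the replicate number as a block, 127 of the pair tests passed in place of 131, members lower in 129 went from 2 to 1 (C1qa, adjusted p = 0.0684, edgeR), C4b in NOD was lost (adjusted p = 0.0584), and C3 in PWK passed (0.46). Depth limits Masp1 in WSB, which rests on 14 to 38 counts per library.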
